A study of Drosophila melanogaster with 2 samples.

Results

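The Drosophila genome carries 269 genes annotated as small nucleolar RNA (snoRNA) genes on its 6 main chromosome arms, out of 18164 annotated genes there. They were taken by biotype from the Ensembl BDGP6 annotation, by a rule that uses no measured value. By symbol, 100 were C/D box genes, 120 were H/ACA box genes and 49 had names that give no class. Arm 2R held 96 of them, 3L held 52, 3R held 48, 2L held 41, X held 31 and arm 4 held 1. A host gene was defined as any gene of another biotype whose span holds the whole snoRNA gene on the same strand. By that definition 247 snoRNA genes (91.8%, 95% interval 87.9 to 94.8) lay in 95 hosts, and 22 had none. The data were peak lists from chromatin immunoprecipitation and sequencing (ChIP-seq) of the protein CG15710 in whole pupae at 24 hours, with males and females pooled. The flies came from a transgenic line that makes CG15710 carrying GFP at its C-terminal end, and chromatin broken by sonication was precipitated with an antibody against GFP. The single group comprised 2 biological replicates, 1 and 3 by their labels, and no group without the transgene was analysed here. The promoter that drives the transgene is not given in the sources used here, whole pupae mix all tissues, and peak lists hold no expression values against which the labelled stage could be checked.

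Small nucleolar RNAs guide chemical modification of ribosomal RNA in the nucleolus. C/D box snoRNAs work with fibrillarin to place methyl groups on ribose, and H/ACA box snoRNAs work with dyskerin to turn uridine into pseudouridine; a few, such as U3, act in cleavage of the precursor ribosomal RNA. In flies most snoRNAs are cut out of introns of other genes, many of which encode ribosomal proteins, while the Uhg genes are non-coding transcripts that are known as carriers of snoRNAs. An intronic snoRNA is usually made without a promoter of its own and depends on the start of its host, whereas the U3 genes are transcribed on their own.

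The box sequences of the genes followed the classes read from their names. Of the 100 C/D genes, 68 had the C box TGATGA in their first 25 bases and 96 had the D box CTGA in their last 25. Of the 120 H/ACA genes, 114 (95%) had ACA in their last 8 bases, 9 (7.5%) had a CTGA near the end and 0 had TGATGA near the start. Among the 49 genes with other names, 15 had both C/D boxes and 11 ended in ACA. C/D genes had a median length of 80 bp (46 to 316) and a median GC content of 35.2%, against 140 bp (82 to 268) and 41.9% for H/ACA genes. The sequences below, from the RefSeq copy of assembly dm6 and written 5′ to 3′ on the strand of the gene, are genes close to a peak or of a kind that the results single out. Capitals mark the C box TGATGA, the D box CTGA or the closing ACA where the stated windows hold them, so that only the D box is marked in Or-CD14 and U3:9B.
Me28S-A774b, C/D box, in RpS12 (chr3L:13023580-13023652, plus strand): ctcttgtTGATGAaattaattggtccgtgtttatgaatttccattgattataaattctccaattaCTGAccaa
Me18S-C1096, C/D box, in RpL3 (chr3R:11222405-11222489, plus strand): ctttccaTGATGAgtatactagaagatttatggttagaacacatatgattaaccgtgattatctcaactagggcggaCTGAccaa
Psi18S-1275, H/ACA box, in RpS29 (chr3R:9778398-9778537, plus strand): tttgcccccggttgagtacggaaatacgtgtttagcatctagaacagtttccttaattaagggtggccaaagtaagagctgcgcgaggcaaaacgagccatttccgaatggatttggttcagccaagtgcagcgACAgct
Psi18S-920, H/ACA box, in RpL10Ab (chr3L:11822984-11823124, plus strand): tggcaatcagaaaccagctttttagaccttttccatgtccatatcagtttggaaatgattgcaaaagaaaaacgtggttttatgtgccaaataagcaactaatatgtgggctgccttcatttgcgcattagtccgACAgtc
Or-CD14, C/D box by name, no host (chr2L:2014449-2014575, minus strand): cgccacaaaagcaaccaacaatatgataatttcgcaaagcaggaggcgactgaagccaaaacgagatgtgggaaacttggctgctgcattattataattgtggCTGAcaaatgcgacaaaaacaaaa
U3:9B, no host (chrX:10348125-10348337, plus strand): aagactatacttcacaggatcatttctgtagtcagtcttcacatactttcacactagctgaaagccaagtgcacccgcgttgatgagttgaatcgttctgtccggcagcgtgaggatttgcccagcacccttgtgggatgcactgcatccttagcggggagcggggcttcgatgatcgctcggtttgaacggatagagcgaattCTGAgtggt

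Peaks came as 4 lists, and each peak was placed by its summit. The authors' list after an irreproducible discovery rate (IDR) filter held 8483 peaks, and the pooled list and the list of each replicate held 30000 each. The deposited signal of a peak is the authors' own value within its list, so signals were used only to describe or rank peaks inside a list, with rank 1 the strongest. The lists hold no read counts, so sequencing depth is unknown. Intervals are 95% exact Clopper-Pearson intervals that cover the counting of genes only. Genes that share a host or a summit are not independent, and no test was made.

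Summits were rare at the snoRNA genes themselves. An IDR summit lay within 500 bp of the 5′ end of 15 of the 269 snoRNA genes (5.58%, 3.15 to 9.03). The same window around any start held an IDR summit in 21.3% of the 17895 genes of other kinds, and in 16.1% of the 14060 of those with only 1 annotated start, which matches the snoRNA genes in the number of chances. Protein-coding genes reached 24.6% and non-coding RNA (ncRNA) genes 10.7%. By class it was 7 of 100 C/D genes and 7 of 120 H/ACA genes (5.83%) and 1 of 49 others (2.04%). No IDR summit fell inside a snoRNA gene (0 of 269, upper limit 1.36%). The count depended on the window, with 6 genes at 250 bp and 60 (22.3%) at 1000 bp, and 1 gene was left with the 4241 strongest IDR peaks. Shares over other genes were computed only at 500 bp and with whole lists, so these 3 counts have no matching share.

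The larger lists gave the same order. A pooled summit lay within 500 bp of 46 snoRNA genes (17.1%), against 42.7% of genes of other kinds and 35.7% of those with 1 start. Replicate 1 had a summit at 64 snoRNA genes (23.8%), against 43.7% of other genes, and replicate 3 at 30 (11.2%), against 42.3% of other genes. The shares of the replicates were close over other genes and apart over snoRNA genes. Both had a summit at 22 snoRNA genes, replicate 1 alone at 42 and replicate 3 alone at 8. Pooled summits lay inside 3 snoRNA genes, none of which had a host. How reads from near-identical genes were placed is not stated in the labels. Of the 32 snoRNA genes with a copy of at least 90% identity, 0 had an IDR summit and 2 a pooled summit, against 15 and 44 of the 237 without such a copy. The replicates differed here. Replicate 1 had a summit at 7 of the 32 (21.9%) and at 57 of the 237 (24.1%), and replicate 3 at 1 (3.12%) and 29 (12.2%).

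At the hosts the picture was the reverse. An IDR summit lay within 500 bp of a start of 59 of the 95 hosts (62.1%, 51.6 to 71.9), and these hosts carry 173 of the 247 hosted snoRNA genes (70%, 63.9 to 75.7). For 159 of them the host start carried a summit while the 5′ end of the snoRNA gene did not. All 59 bound hosts had a summit at a start in both replicate lists, though not always the same summit. The IDR list was made from these replicates, so this adds no separate support. With only the 4241 strongest IDR peaks, 29 hosts were bound. The share of other genes bound by those strongest peaks was not computed. Ribosomal protein genes were taken by symbol, as those that start with RpL or RpS, so sta, which encodes a ribosomal protein of the small subunit and was bound, counts among the other protein-coding hosts. Of the 28 ribosomal protein genes among the hosts, 26 were bound (92.9%, 76.5 to 99.1), against 62.5% of the 64 ribosomal protein genes that host no snoRNA and 71.7% of all 92. Of the 56 other protein-coding hosts, 28 were bound (50%, 36.3 to 63.7), against 24.2% of other protein-coding genes that host none. Of the 10 ncRNA hosts, 4 were bound (40%, 12.2 to 73.8), beside the 10.7% of all ncRNA genes. The single pseudogene host, CR33222, had a summit 492 bp upstream, which is also the summit of the overlapping RpS6.

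**Figure D1:**
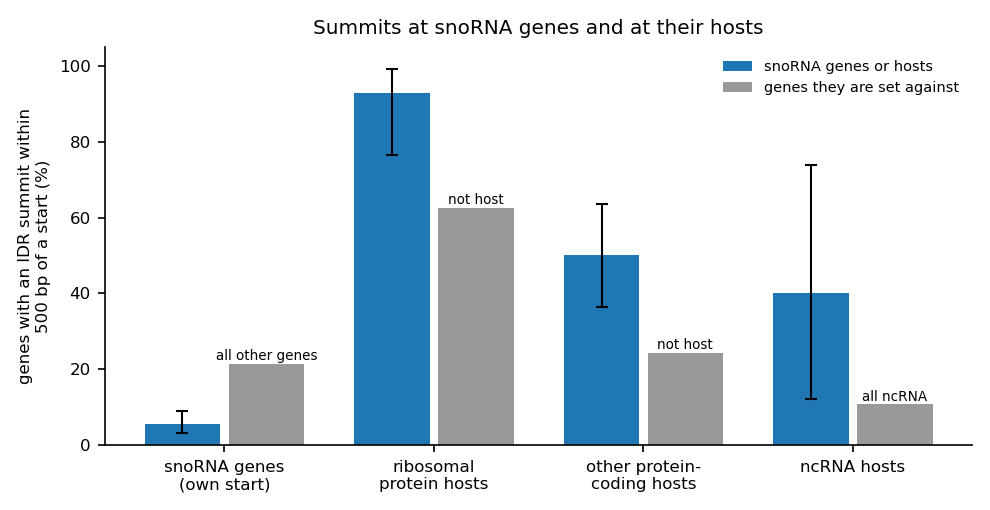
Share of genes (%) with an IDR summit within 500 bp of a start, for snoRNA genes by their own 5′ end and for 3 kinds of host (blue, with 95% exact Clopper-Pearson intervals), each beside the genes it is set against (grey). The blue bar lies below the grey one for snoRNA genes (5.58% against 21.3%) and above it for ribosomal protein hosts (92.9% against 62.5%), other protein-coding hosts (50% against 24.2%) and ncRNA hosts (40% against 10.7%).

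Hosts have more annotated starts than other genes, with a median of 2 in protein-coding hosts and 1 in protein-coding genes that host none, which gives them more chances of a summit. Among protein-coding genes with 1 start, 23 of 40 hosts were bound (57.5%), against 1885 of 10206 other genes (18.5%). With 2 to 3 starts it was 24 of 33 hosts (72.7%), against 38.3% of other genes. With 4 or more starts the shares lay close together, at 7 of 11 hosts (63.6%, 30.8 to 89.1) and 58.7% of other genes. Ribosomal protein genes are included in these counts. When only the most upstream start was used, 54 hosts were bound.

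The 14 hosted snoRNA genes with a summit of their own all shared it with a host start. Without replicate 1, with the 8483 strongest replicate 3 peaks in place of the IDR list, 8 of 9 did. The 14 genes lay near the front of their hosts, at a median of 178 bp (96 to 511) downstream of the nearest host start, against 1465 bp (0 to 50634) for all 247 hosted genes. An IDR summit lay within 500 bp of 9 of the 15 snoRNA genes up to 250 bp from the host start, of 4 of the 18 beyond 250 and up to 500 bp, of 1 of the 51 beyond 500 and up to 1000 bp, and of 0 of the 163 farther in. A summit at any start of a host was found for 14 of those 15, 15 of those 18, 42 of those 51 and 102 of those 163 snoRNA genes. That start need not be the nearest one, and it can belong to another host. Or-CD15, for example, lies 60 bp from the start of Uhg7, which was not bound. Its nearest IDR summit was 1487 bp away, and it is counted through its other host, RpL23A. Distance to the host start is part of how a summit at that start can reach the window, so these counts describe the layout of the genes.

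**Figure D2:**
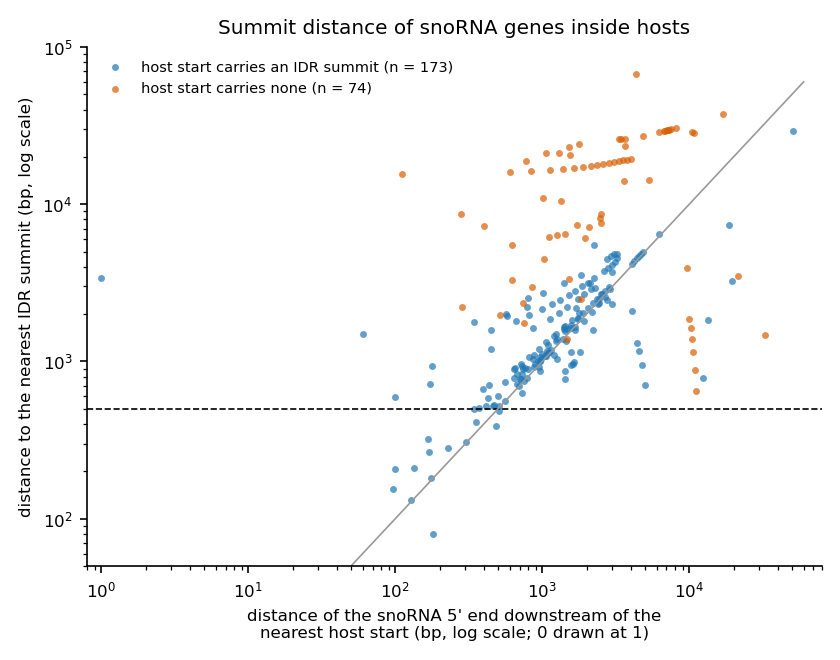
Distance from the 5′ end of each of the 247 hosted snoRNA genes to the nearest IDR summit, against its distance downstream of the nearest host start (both in bp, log scale). Blue points are the 173 genes with an IDR summit at any start of a host, which need not be the nearest start. Orange points are the 74 with none, the grey line marks equal distances and the dashed line 500 bp. Many blue points follow the grey line and few lie under the dashed line.

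Of the 15 snoRNA genes with an IDR summit, 8 lay in ribosomal protein hosts, which supply the structural proteins of the ribosome. In RpS12, a protein of the small subunit, the summit (signal 263.7, rank 5321) lay 280 bp upstream of the C/D gene Me28S-A774b and 52 bp upstream of the host start; it ranked 5907 in replicate 1 and 4442 in replicate 3. In RpS29 the summit (195.0, rank 7042) lay 308 bp upstream of the H/ACA gene Psi18S-1275 and 7 bp upstream of the host start, with ranks 6367 and 6735 in replicates 1 and 3. In RpL3 it (320.8, rank 4351) lay 484 bp upstream of Me18S-C1096 and 27 bp inside the host, with ranks 3278 and 8825, and CG6693 also starts within 500 bp of it. In RpL15 it (209.4, rank 6604) lay 131 bp upstream of Me18S-G1358c and 3 bp upstream of the host start, with ranks 9603 and 4337. Both replicates thus had these 4 summits, all of them in the weaker part of the IDR list.

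RpL10Ab and RpL17 had more than 1 summit. Psi18S-920 in RpL10Ab had IDR summits 434 bp (266.2) and 210 bp (254.0) upstream, of which the nearer lay 77 bp before the host start and the farther was closest to a start of the neighbouring gene CG11597. In RpL17 a summit of signal 186.1 lay 320 bp upstream of Psi28S-1060 and 495 bp upstream of Psi28S-3436a, and 154 bp upstream of a host start. It also lay 494 bp downstream of the 5′ end of Psi28S-1232, whose other summit (283.1, rank 4950) was 412 bp upstream and 11 bp inside another start of RpL17. The 3 genes of RpL17 therefore rest on 2 summits, and a tRNA gene also starts within 500 bp of the stronger. Psi28S-3436a was the member just inside the window, and Or-CD11a in RpL28, at 508 bp, the member just outside it. The next ones out were Me18S-G1620 in Uhg2 at 518 bp, Psi28S-2648 in RpL36A at 519 bp and Or-aca5 in Uhg4 at 521 bp.

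The remaining hosted genes were in Uhg genes and in 2 protein-coding hosts. Psi28S-2949 in Uhg4 had the strongest summit of any snoRNA gene (698.5, rank 1770), 208 bp upstream of it and 109 bp upstream of the host start, with ranks 1792 and 1778 in replicates 1 and 3. In Uhg2 the summit (302.0, rank 4641) lay 155 bp upstream of Me18S-A1576 and 59 bp upstream of the host. The nearest replicate 1 summit was 4 bp from it and the nearest replicate 3 summit 199 bp, and the protein-coding gene Bka also starts within 500 bp of it. In Uhg5 a single summit (164.7, rank 8232) lay 80 bp upstream of Me18S-C1366 and 386 bp upstream of Me28S-C3227a, inside the host. It ranked 6691 in replicate 1 and only 17786 in replicate 3, and the protein-coding gene CG12863 also starts within 500 bp of it. In Sf3b3, a splicing factor of the U2 particle, the summit (183.8, rank 7437) lay 182 bp upstream of Psi18S-1086 and 6 bp upstream of the host, with ranks 6499 and 10626. In CG43051 the summit (229.5, rank 6062) lay 266 bp upstream of the unclassed CG43051-a and 97 bp upstream of the host, and it ranked 4340 in replicate 1 but 14601 in replicate 3.

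**Figure D3:**
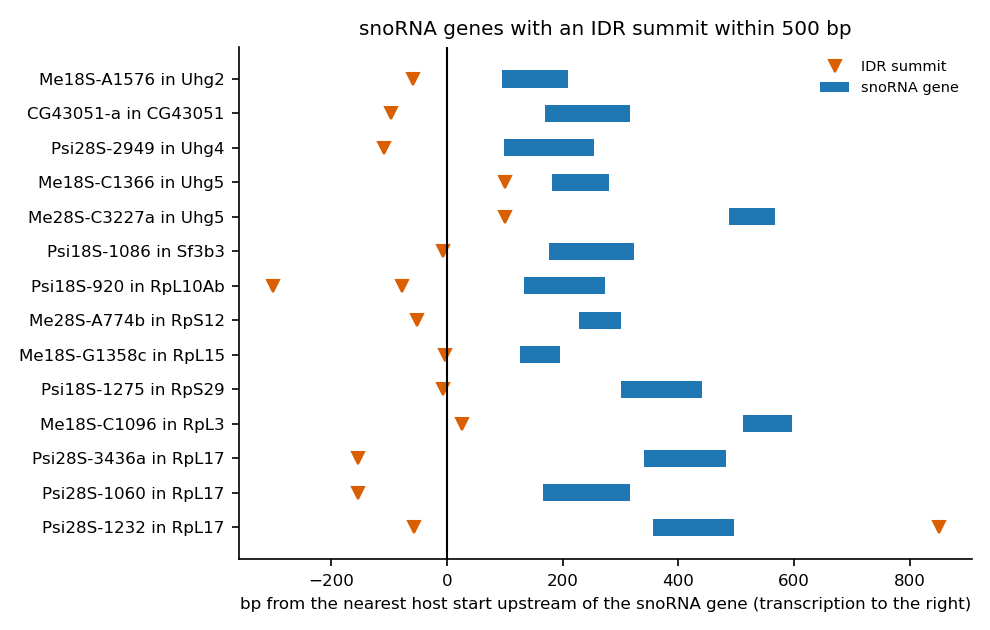
The 14 hosted snoRNA genes with an IDR summit within 500 bp, drawn to scale in bp from the nearest host start upstream of each (0), with transcription to the right. Blue bars are snoRNA genes and orange triangles IDR summits; all summits but those of Uhg5, RpL3 and the downstream one at Psi28S-1232 lie upstream of 0, and none falls on a blue bar.

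Over the 15 genes there were 17 pairs of gene and summit and 14 distinct summits, with a median signal of 209 over the pairs, against 329 over all IDR peaks. The snoRNA 5′ end was the nearest of all annotated starts in 2 of the 17 pairs. These were Me18S-C1366, 80 bp from the summit and closer to it than the Uhg5 start, and Or-CD14, the only bound gene without a host. Or-CD14, an orphan C/D gene with no assigned target, had a summit (177.6, rank 7655) 352 bp downstream of its 5′ end, which is beyond its own 127 bp. The summit ranked 6876 in replicate 1 and 9887 in replicate 3, and no other gene started within 500 bp of it. Or-CD14 lies inside CG4238, which runs on the other strand.

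The strongest summit within 500 bp of a host start had a median signal of 321 (162 to 2697), against 370 at bound protein-coding genes that are no host and 329 over all IDR peaks. Ribosomal protein hosts had a median of 326 (162 to 786), against 346 at ribosomal protein genes that host none. Of the 59 strongest host summits, 31 (52.5%) also lay within 500 bp of a start of another gene, against 57.4% at protein-coding genes that are no host, so a summit cannot always be given to the host alone. The summit lay upstream of the nearest start at 50 of the 59 hosts (84.7%), against 84.5% of those genes. Its median distance was −44.5 bp (upstream) at ribosomal protein hosts and −160 bp at other protein-coding hosts, against −19.5 bp at ribosomal protein genes that host none and −140 bp at protein-coding genes that are no host.

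The 7 strongest host summits were not at ribosomal protein genes. CG1142 (chr3R:7472458-7473781, minus strand), which holds 1 snoRNA gene, had the highest, with an IDR signal of 2697.1 (rank 127) at 185 bp upstream, and it ranked 147 in replicate 1 and 118 in replicate 3. Stt3A, a catalytic subunit of the enzyme that transfers sugar chains to proteins, followed with 2125.6 (rank 231) at 392 bp upstream and ranks of 174 and 435. CG12316 had 1529.5 (rank 511), 79 bp inside. Msp300, a nesprin that ties nuclei to the cytoskeleton, had 1350.7 at 384 bp upstream of an internal start. For lola, a zinc-finger transcription factor of axon guidance, it was 1273.0 at 445 bp upstream of an internal start. Both of these summits lie inside the span of the gene, and Msp300 had none within 500 bp of its most upstream start. The strongest summits near a start of these 5 hosts ranked from 147 to 916 in replicate 1 and from 118 to 651 in replicate 3. They were chosen in each list on its own. For lola the replicate 1 summit (rank 661) was a different one, 134 bp upstream of another start.

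Weaker summits followed at the other hosts named by signal. Irbp, the fly Ku70 protein of DNA end joining, had a signal of 1065.7 (rank 993) at 89 bp upstream. For drn it was 948.5 at 173 bp upstream of an internal start and inside the span of the gene. For RpL14 it was 785.6 at 63 bp upstream and for Uhg4 698.5 (rank 1770) at 109 bp upstream.

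**Figure D4:**
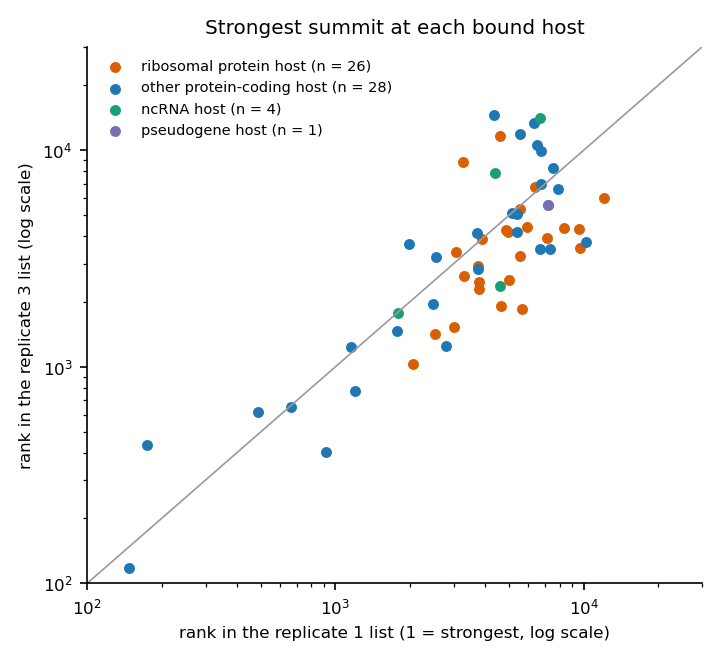
Rank of the strongest summit within 500 bp of a start at each of the 59 bound hosts, in the replicate 1 list and in the replicate 3 list (log scales, 1 = strongest, 30000 = weakest), coloured by kind of host. The summit was chosen in each list on its own, so the 2 ranks of a host can belong to different summits, as at lola and drn. Points lie along the grey line of equal rank for the strongest hosts and spread to either side of it among the weaker ones; CG1142 is the lowest point on the left, at ranks 147 and 118.

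Bound hosts were found whether a host held 1 snoRNA gene or many. Among hosts with 1 snoRNA gene 28 of 56 were bound, among those with 2 to 3 it was 16 of 18, and among those with 4 or more it was 15 of 21. Over all genes of other kinds than snoRNA the share was 21.3%. Ribosomal protein hosts, of which 26 of 28 were bound, make up unequal parts of these groups and were not separated here. The counts are therefore not read as a relation to the number of snoRNA genes. Of the hosts with the most snoRNA genes, Arpc2, a subunit of the actin-branching Arp2/3 complex (chr2L:20417057-20423027, plus strand), held 17 and had an IDR summit of 373.9 (rank 3744) 99 bp upstream. RpS5a held 14 and had one of 423.8 at 91 bp upstream, and kra, a regulator of translation, held 8 and had one of 267.8 at 174 bp upstream. Uhg5 (11 snoRNA genes) and Sf3b3 (9) had the weak summits given above. Hrb98DE, an RNA-binding protein of the hnRNP kind, held 7, as did RpS7 and Uhg4, and had a summit of 229.3 at 180 bp upstream.

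Hosts rich in snoRNA genes were also found without an IDR summit. Uhg1 (chr2R:17699097-17703344, plus strand) held 16 snoRNA genes, and its nearest IDR or pooled summit was 15450 bp away. Replicate 1 had a summit 139 bp from its start (83.9, rank 9933) and replicate 3 had none within 500 bp. The chromatin remodeller gene dom held 15, with its nearest IDR summit at 22499 bp, although both replicates had weaker summits at a start, with ranks 7700 and 11512. Nop60B, the fly dyskerin and so the catalytic protein of the H/ACA particle, held 7, of which 6 overlap an annotated exon of it. Its nearest IDR summit was 11338 bp away, while replicate 1 (rank 11476) and replicate 3 (rank 11915) each had a summit within 500 bp of the start.

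Among the other hosts, RpL7A had no IDR summit at a start but had a pooled summit and a summit in each replicate. Of the 10 ncRNA hosts, Uhg2, Uhg4, Uhg5 and Uhg8 were bound, the last with a signal of 401.8 at 249 bp upstream. Uhg1, Uhg3, Uhg7, lncRNA:CR45184, lncRNA:CR31647 and lncRNA:CR42491 were not. Uhg7 lies inside RpL23A, lncRNA:CR45184 inside Sf3b3 and lncRNA:CR42491 inside RpL22, and those 3 protein-coding genes were bound. RpL7A and the ncRNA hosts were named after their values were seen. In RpS5a, 6 of the 14 snoRNA genes had a replicate 1 summit within 500 bp, and 0 had a replicate 3 or pooled one.

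The bases from 50 bp before to 50 bp after the summit had a median GC content of 43.6% at ribosomal protein hosts and 32.7% at other protein-coding hosts, against 44.1% at ribosomal protein genes that host none and 30.7% at all IDR summits. The 6 motifs searched on either strand were TATCGATA, the DNA replication-related element, GGTCACAC, known as Ohler motif 1, CACGTG and the other E-box, spelled CAGCTG, the repeat GAGAG of the GAGA factor, and the TATA box, spelled TATAAA. A base may count in matches of more than 1 motif. TATCGATA was in 5 of the 58 distinct host windows (8.62%), of which 4 were among the 26 of ribosomal protein hosts (15.4%), against 20% at ribosomal protein genes that host none, 2.49% at protein-coding genes that are no host and 0.967% of all IDR windows. TATAAA was in 1 of 26 ribosomal protein host windows (3.85%), against 5 of 40 (12.5%) at ribosomal protein genes that host none. It was in 8 of 28 of other protein-coding hosts (28.6%), against 24.2% at protein-coding genes that are no host and 24.5% of all IDR windows. GAGAG was in 3 of the 58 host windows (5.17%), against 9.74% of all IDR windows, and CAGCTG in 1 (1.72%), against 2.31%. CACGTG was in 2 host windows (3.45%), against 0.519% of all IDR windows, and GGTCACAC in 1 (1.72%), against 0.53% of all IDR windows and 12.5% at ribosomal protein genes that host none. Each of these 4 counts rests on 3 windows or fewer.

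Windows of 6 hosts are shown as the data behind those counts: the strongest host summit, the RpL28, RpS12 and Sf3b3 windows that hold TATCGATA, the Uhg2 window with CACGTG and the drn window with TATAAA. They are written 5′ to 3′ on the strand of the host from the RefSeq copy of dm6, and capitals mark a motif or its reverse complement. The CG1142 window holds none of the 6. The Sf3b3 window is cut to the stretch without annotated exons.
CG1142 (chr3R:7473916-7474016, minus strand): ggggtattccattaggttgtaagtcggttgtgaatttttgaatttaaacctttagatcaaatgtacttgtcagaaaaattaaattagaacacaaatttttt
RpL28 (chr3L:3222999-3223099, minus strand): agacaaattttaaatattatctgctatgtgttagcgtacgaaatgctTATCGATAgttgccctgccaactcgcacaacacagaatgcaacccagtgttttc
RpS12 (chr3L:13023250-13023350, plus strand): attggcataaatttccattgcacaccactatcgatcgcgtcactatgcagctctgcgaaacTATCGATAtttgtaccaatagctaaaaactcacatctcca
Sf3b3 (chr3L:833386-833441, minus strand): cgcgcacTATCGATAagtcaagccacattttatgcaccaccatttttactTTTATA
Uhg2 (chr2L:9895012-9895112, minus strand): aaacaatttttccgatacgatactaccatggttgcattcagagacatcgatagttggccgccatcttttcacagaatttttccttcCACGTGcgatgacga
drn (chr3R:9341644-9341744, plus strand): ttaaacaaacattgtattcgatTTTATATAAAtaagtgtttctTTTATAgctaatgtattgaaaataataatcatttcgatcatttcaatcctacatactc

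A match is a description of letters and no measure of binding by a factor. The TATCGATA in RpS12 and RpL28 lies in windows whose IDR signals were 263.7 and 594.7, and that of Sf3b3 in one of 183.8, while the CG1142 window, with none of the motifs, had 2697.1.

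The snoRNA genes without a host gave a different pattern in the weaker lists. Only 1 of the 22 had an IDR summit within 500 bp (4.55%, 0.115 to 22.8), but 15 had a pooled one (68.2%, 45.1 to 86.1), against 31 of the 247 hosted genes (12.6%, 8.69 to 17.3) and the 42.7% of genes of other kinds. Replicate 1 had a summit at 16 of them (72.7%), against 43.7% of genes of other kinds, and both replicates had one at 7. Replicate 3 had a summit at 9 (40.9%, 20.7 to 63.6), which was not above the 42.3% of genes of other kinds. The count without replicate 1 is this same 9 and not a second result. Genes of other kinds can have several starts. For those with 1 start the share was 35.7% in the pooled list and was not computed in the replicate lists. The median distance to the nearest pooled summit was 322 bp, against 1282 bp for hosted genes and 1246 bp for genes of other kinds. These summits were weak, with a median pooled signal of 60.8 (35.8 to 178) and a median rank of 17749 of 30000, against a signal of 77.2 over all pooled peaks. The 15 genes rest on fewer summits, since Psi28S-1153 and the 2 genes beside it, which are named only by position, share one of signal 85.2, and Or-ACA7 and MeU1b-A234 share one of 51.1. Of the 22 genes, 10 lie inside a gene on the other strand.

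Several of these weak summits lay on or beside the gene itself. In the pooled list the nearest summit was 12 bp upstream of Psi28S-2622, 27 bp inside Psi28S-3342 and 37 bp inside Psi18S-301. It was 39 bp upstream of Or-ACA7, 47 bp upstream of the 55 bp gene snoRNA:185, and 93 bp inside U3:9B, where the signal was 37.5 (rank 24675). Replicate 1 had a summit within 500 bp of each of these 6, and replicate 3 had one at Psi28S-2622 and snoRNA:185. Psi18S-176 had a replicate 3 summit at 10 bp (rank 10702), while its nearest summit in the pooled list was at 4796 bp. The 2 U3 genes at 54A, identical copies of each other and 90.6% identical to U3:9B, had pooled summits 781 and 896 bp upstream and none within 500 bp, while replicate 1 had a weak one (rank 29598) within 500 bp of U3:54Aa. Or-CD14 and Me18S-G1506 were the only genes without a host whose nearest IDR summit was within 2000 bp, at 352 and 1358 bp.

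**Figure D5:**
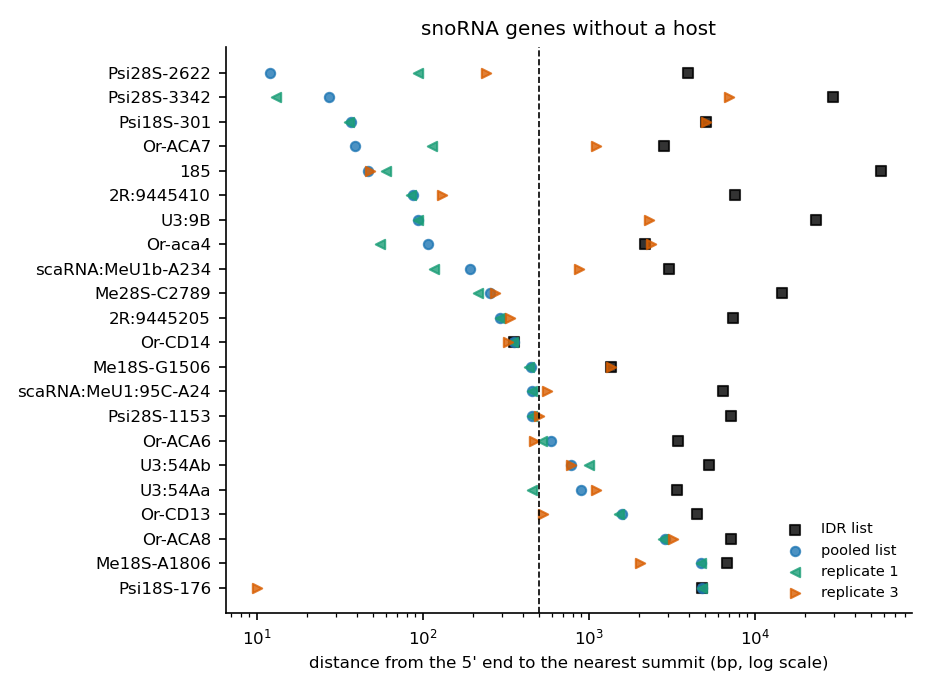
Distance in bp (log scale) from the 5′ end of each of the 22 snoRNA genes without a host to the nearest summit in the IDR list (black), the pooled list (blue), replicate 1 (green) and replicate 3 (orange), sorted by the pooled distance. At or left of the dashed line at 500 bp lie 15 pooled, 16 replicate 1 and 9 replicate 3 summits but 1 IDR summit, that of Or-CD14.

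Most of the 49 snoRNA genes with other names also lay in hosts. Of these, 43 had a host, and the host start carried an IDR summit for 22 of the 43 (51.2%), against 63 of 93 C/D genes (67.7%) and 88 of 111 H/ACA genes (79.3%). In bound hosts lay U14:30Ea and U14:30Eb of Uhg2, which act in processing of the small-subunit RNA, the 4 genes of lola, the 2 of SC35, the 2 of Usp10 and the 2 U49 genes of RpL14. The same held for CG43051-a, kis-a, gcl-a, Tudor-SN-a, Irbp-a, CD-24 in RpS3A, snoRNA:M in sta, the gene shared by x16 and nop5, and single genes in CG42564 and Fib. The others included 11 genes of Uhg1, named U27, U29, U31, U76 and snR38. They also included Dek-a, abba-a, hts-a, Edc3-a, Pi4KIIalpha-a, CG31191-a, CG16892-a and single genes in the actin gene Act57B, CG10576 and Prp39. CG43051-a was the only one with an IDR summit of its own.

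Genes for the proteins that build, carry and trim snoRNAs were bound in part. Of the 27 listed, 10 had an IDR summit within 500 bp of a start (37%, 19.4 to 57.6), beside 24.6% of protein-coding genes. A pooled summit was at 19 (70.4%), beside 42.7% of all genes other than snoRNA genes, and the pooled share of protein-coding genes alone was not computed. In the C/D particle, the methyltransferase gene Fib had a summit of 176.7 (rank 7696) 146 bp upstream and nop5 one of 487.4 at 252 bp upstream, and both genes also host 1 snoRNA gene. Nop56 and hoip, the other core proteins, had pooled summits but no IDR summit. In the H/ACA particle NHP2 had a summit of 600.5 at 189 bp upstream, while Nop60B, Nop10 and Gar1 had no IDR summit. Gar1 had no summit within 500 bp in any of the 4 lists.

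All 3 assembly genes were bound. The ATPase gene pont had the strongest summit of the 27 (1842.2, rank 333) 139 bp upstream, ranking 462 in replicate 1 and 203 in replicate 3. Its partner rept had 370.6 at 95 bp upstream and Nufip 213.2 at 38 bp upstream. Nopp140, a nucleolar chaperone, had 263.7 at 86 bp upstream. Of the 11 genes of the exosome and its helicase, which trim snoRNA ends, 3 were bound (27.3%, 6.02 to 61), close to the 24.6% of protein-coding genes. These 3 were Rrp6 (521.5), Ski6 (427.2) and Csl4 (433.8). Ski6 had a replicate 3 summit (rank 2954) but none of replicate 1 within 500 bp. Rrp4, Rrp42, Rrp45 and Rrp46 had pooled summits but no IDR summit, and Rrp40, Mtr3, Dis3 and Mtr4 had none there. The debranching gene ldbr, which opens the intron lariat, and the snRNA activating complex genes Pbp45, Pbp49 and Pbp95 had no IDR summit, though ldbr and Pbp49 had a pooled one.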

How the data were processed

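ChIP-seq of CG15710-GFP in whole pupae gave 4 peak lists on dm6: 1 for each of 2 replicates, 1 pooled and 1 after an IDR filter by the authors. The deposited signal of each peak, which the authors give on a scale not stated, ranked peaks within a list. The authors also deposited a −log10 q-value for each peak, which was not used. No source used here names the aligner, the peak caller or the IDR threshold. Summits were start plus the deposited offset. Genes came from Ensembl release 115 (BDGP6.54) and sequence from the RefSeq copy of the assembly. Genes with a summit up to 500 bp from a start were called bound. Tools were Python 3.11.15, pandas 2.3.3, NumPy 2.4.6, SciPy 1.17.1 (intervals), edlib (identity of copies) and matplotlib 3.10.9. Only the calling of a summit near a start was tested, on simulated summits at genes with 1 start. No control was analysed here. Members and lists were chosen with earlier results of these data known. Named were every snoRNA gene with an IDR summit within 500 bp, the 10 hosts of highest signal, the 8 with most snoRNA genes (with ties), snoRNA genes without host within 2000 bp of an IDR summit, those of no class by name, and 27 proteins; some results under this rule are not reported here. Alternatives were windows of 250 and 1000 bp, the strongest peaks only, each replicate left out, peak intervals, nearest starts and hosts on either strand.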

Additional observations from a re-analysis of the deposited data

How the results depend on the processing

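Of 78 alternative values, 54 were within 1.5 times the reported one and 24 were not. IDR summits at the 5′ end of snoRNA genes (15) became 6 with a window of 250 bp, 60 with 1000 bp, 1 with the 4241 strongest IDR peaks, 26 with peak intervals in place of summits and 2 when a summit counted only for its nearest start, and ranged from 10 to 17 when each replicate was left out. Those shared with a host start (14 of 14) became 6 of 6, 55 of 59, 1 of 1, 24 of 25 and 0 of 1 in the same order, and ranged from 8 to 16. With the 4241 strongest peaks, 91 snoRNA genes had a bound host (173 reported), 29 hosts were bound (59) and 16 hosts other than ribosomal protein genes were bound (33); leaving out a replicate gave 146 to 179, 53 to 59 and 28 to 35. The single IDR summit at a gene without a host became 0 with 250 bp, with the strongest peaks and with hosts on either strand, and was 1 without either replicate. Pooled summits at snoRNA genes (46) became 22 with 250 bp, 107 with 1000 bp and 27 with the nearest start only. At genes without a host, pooled summits (15 of 22) became 9 with 250 bp, 5 with the stronger part of the pooled list and 8 of 12 with hosts on either strand, and ranged from 9 to 16 without a replicate; these alternatives were chosen after seeing the data. The count of 10 snoRNA protein genes ranged from 9 to 10 without a replicate and no alternative moved it by over 1.5 times. Shares over other genes were not recomputed under these alternatives. The cause of these moves was not tested. No paired analysis was possible because there is 1 group and no test. The lists hold no depth, so how far weak summits reflect sequencing depth cannot be told.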
